A study of Mus musculus with 8 samples.

Results

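The Notch genes of the kidney were followed through RNA from 8 whole mouse kidneys. The set was fixed by name and held 4 receptors (Notch1, Notch2, Notch3 and Notch4), 4 ligands (Jag1, Jag2, Dll1 and Dll4) and the target genes Hes1 and Hey1, and all 10 of 10 were found among the 23219 genes of the deposited table. The control group was 4 kidneys of genotype Mta2flx/flx, and the mutant group was 4 kidneys of genotype Six2Cre Mta2flx/flx. Both groups were 2 months old and both carried the floxed alleles of Mta2, a subunit of the chromatin complex NuRD, and the mutants alone carried Cre under control of Six2. Six2 is active in the progenitors of the nephron epithelium, so endothelium, vessel wall and interstitium were not the labelled site of deletion. The labels speak of 4 kidneys per genotype and do not state that each came from a separate animal, so the spread behind each p-value is that of these kidneys, which may be technical.

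Notch is a short-range signal between neighbouring cells. A ligand of the Jagged or Delta-like family on one cell binds a Notch receptor on the next, the receptor is cut by an ADAM protease and then by gamma-secretase, and its freed intracellular part joins the DNA-binding protein RBPJ to switch on repressor genes such as Hes1 and Hey1. In the mouse kidney, Notch2 is the receptor chiefly needed to form the proximal parts of the nephron. In vessels, Dll4 and Notch4 are typical of endothelium and Notch3 of smooth muscle and pericytes, and forced Notch activity in mouse podocytes leads to glomerulosclerosis, a lesion of the kind named in the title of the series.

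Promoter sequence from RefSeq (GRCm38.p6, the assembly also called mm10) was at hand for 8 of the 10 genes, in 9 windows of 300 bases that run from 250 before to 50 after a start site. It was not used for Hes1 and Hey1. The windows of 3 members are shown because the values below turn on them: Notch2 had the highest receptor level per length, Notch3 had the widest spread of any receptor between libraries, and Dll4 had the narrowest spread of all members in the values as deposited. Each is written 5′ to 3′ on the strand of the gene, and capitals mark GC boxes, the letters GGGCGG or their complement CCGCCC, bound by factors of the SP family. The Notch2 window is chr3:98013288-98013587 on the plus strand, the Notch3 window chr17:32166841-32167140 on the minus strand and the Dll4 window chr2:119325534-119325833 on the plus strand.
Notch2: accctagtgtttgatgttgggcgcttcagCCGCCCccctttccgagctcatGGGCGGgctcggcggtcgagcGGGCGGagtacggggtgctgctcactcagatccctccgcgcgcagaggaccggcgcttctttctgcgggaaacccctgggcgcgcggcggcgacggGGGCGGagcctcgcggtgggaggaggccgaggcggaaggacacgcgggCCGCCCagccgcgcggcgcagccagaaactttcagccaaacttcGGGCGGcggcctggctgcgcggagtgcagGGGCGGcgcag
Notch3: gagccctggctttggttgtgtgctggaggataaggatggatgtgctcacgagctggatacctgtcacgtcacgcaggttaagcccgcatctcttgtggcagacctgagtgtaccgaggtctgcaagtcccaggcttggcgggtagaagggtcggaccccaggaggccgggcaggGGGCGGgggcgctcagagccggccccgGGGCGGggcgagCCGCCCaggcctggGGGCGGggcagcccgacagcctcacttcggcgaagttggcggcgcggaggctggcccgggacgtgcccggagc
Dll4: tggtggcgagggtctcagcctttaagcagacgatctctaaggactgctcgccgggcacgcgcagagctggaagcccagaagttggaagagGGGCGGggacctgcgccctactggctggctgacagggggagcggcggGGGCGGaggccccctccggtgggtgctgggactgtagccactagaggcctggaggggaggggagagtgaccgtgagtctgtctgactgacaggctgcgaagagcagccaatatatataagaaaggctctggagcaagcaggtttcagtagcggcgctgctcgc
GC boxes stood 7 times in the Notch2 window, 4 times in that of Notch3 and 2 times in that of Dll4. The windows of Notch1 and Jag2 held 5 each, and those of Notch4, Jag1 and Dll1 held 0. Of all 32851 windows of the same length, 35.7% held at least 1, counted on both strands. The core letters bound by RBPJ, TGGGAA or TTCCCA, were in 0 of the 9 windows and in 25.6% of all windows, which says nothing of RBPJ sites elsewhere in these genes.

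In mm10, by the GENCODE vM21 annotation, the receptors span chromosome 2 from 26457903 to 26516663 (Notch1), chromosome 3 from 98013527 to 98150361 (Notch2), and chromosome 17 from 32120820 to 32166852 (Notch3) and from 34564268 to 34588503 (Notch4). Jag1 spans chromosome 2 from 137081456 to 137116644, Jag2 chromosome 12 from 112907819 to 112929776, Dll1 chromosome 17 from 15367354 to 15376872 and Dll4 chromosome 2 from 119325784 to 119335962. Hes1 spans chromosome 16 from 30064384 to 30067796, and Hey1 chromosome 3 from 8663359 to 8667256. All 10 are protein-coding genes.

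Levels are given in BPM, the sequenced bases assigned to a gene per megabase assigned to all genes. Libraries held 164 to 468 megabases in all. Small RNA genes took 15.9% to 34.3% of the bases in the controls and 26.4%, 48.0%, 52.6% and 25.9% in mutants 3382, 3387, 3487 and 3489. The median of the tested genes outside the small RNA classes was 11.96 to 21.3 BPM in the controls, with 21.3 in control 3586, and 19.9, 10.6, 8.50 and 18.99 BPM in those mutants. Markers of proximal tubule, thick ascending limb, distal tubule, collecting duct, podocytes and endothelium were present in every library, as the kidney label says. Of 5 markers of nephron progenitors (Six2, Cited1, Osr1, Eya1 and Meox1), Six2 and Eya1 had no bases in any library. The 5 together summed to 6.74 to 16.9 BPM in the controls and 3.34 to 9.61 BPM in the mutants. Mta2 itself was at 49.0, 35.1, 67.9 and 52.4 BPM in controls 3401, 3486, 3586 and 3587 and at 52.6, 33.1, 14.3 and 48.9 BPM in mutants 3382, 3387, 3487 and 3489. The groups overlapped and the log2 fold change of -0.56 did not pass the threshold of 0.05 (adjusted p = 0.857 by limma), so in whole kidney the targeted gene did not separate the genotypes, and each library is named by its label alone. In whole tissue, fewer cells of a type and less RNA per cell cannot be told apart.

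For none of the 10 Notch genes did the difference between genotypes pass the test. Their adjusted p ran from 0.857 to 0.954 (limma, Benjamini-Hochberg over 13060 tested genes, threshold 0.05), against 0.107% of all tested genes past the threshold. At an unadjusted p under 0.05 the members again counted 0, against 6.33% of all tested genes. Under other settings, single members had an unadjusted limma p under 0.05: Dll4 with no filter (0.0313, against 5.49% of genes) and Notch1 without mutant 3382 (0.0328, against 9.94%). So did Notch2 and Notch3, both then higher in mutants, with the small RNA share as covariate (limma p of 0.0302 and 0.0257, against 22.1%). In that fit 2373 of 13060 genes were higher and 509 lower at an unadjusted p under 0.05. For each of the 10 the groups overlapped, against 4.29% of tested genes whose groups did not. All 10 passed the filter of at least 1 BPM in 4 or more libraries, Hey1 with exactly 4. Their estimates leaned low as deposited, with 1 of 10 log2 fold changes positive, where 28.4% of all tested genes were positive, and a median of -0.44, where the median tested gene lay at -0.23. This lean turned in other fits: 7 of 10 were positive with the small RNA share as covariate (median 0.38, with 68.4% of all tested genes positive and their median at 0.25), and 7 of 10 without mutants 3387 and 3487 (median 0.28, with 68.5% positive and their median at 0.23).

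Notch1, the receptor with a broad role in endothelium and epithelium, was at 32.5, 18.4, 46.8 and 29.6 BPM in controls 3401, 3486, 3586 and 3587 and at 39.2, 5.62, 11.9 and 30.9 BPM in mutants 3382, 3387, 3487 and 3489. Mutants 3387 and 3487 lay below all controls, and the other two lay within the control range. The means were 31.8 ± 11.7 and 21.9 ± 15.8 BPM (SD, n = 4 each), with a log2 fold change of -0.78 (SE 0.50, 95% limits -1.82 and 0.27, adjusted p = 0.857 by limma).

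Notch2, the receptor of proximal nephron formation, was at 26.9, 37.6, 71.7 and 51.3 BPM in the same order of controls and at 74.8, 20.7, 24.2 and 62.5 BPM in the mutants. Mutant 3382 lay above all controls, mutant 3489 within their range, and mutants 3387 and 3487 below all of them. The group means were close, 46.9 ± 19.3 and 45.5 ± 27.2 BPM (SD, n = 4 each), and the log2 fold change was -0.16 (SE 0.43, 95% limits -1.07 and 0.75, adjusted p = 0.954 by limma).

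Notch3, the receptor of vascular smooth muscle and pericytes, was at 8.98, 5.92, 19.9 and 8.88 BPM in the controls and at 23.7, 2.39, 3.84 and 16.5 BPM in the mutants. The mutants held both the highest value of all 8 libraries (3382) and the lowest (3387), a range of 9.91 times, against 3.36 times within the controls. The log2 fold change was -0.25 (SE 0.58, 95% limits -1.47 and 0.97, adjusted p = 0.948 by limma). Notch4, a receptor of endothelium, was at 15.1, 5.23, 22.3 and 20.01 BPM in the controls and at 16.5, 7.37, 3.53 and 15.96 BPM in the mutants. Here 1 control, 3486, lay as low as the low mutants, and the log2 fold change was -0.53 (SE 0.52, 95% limits -1.62 and 0.55, adjusted p = 0.894 by limma).

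**Figure D1:**
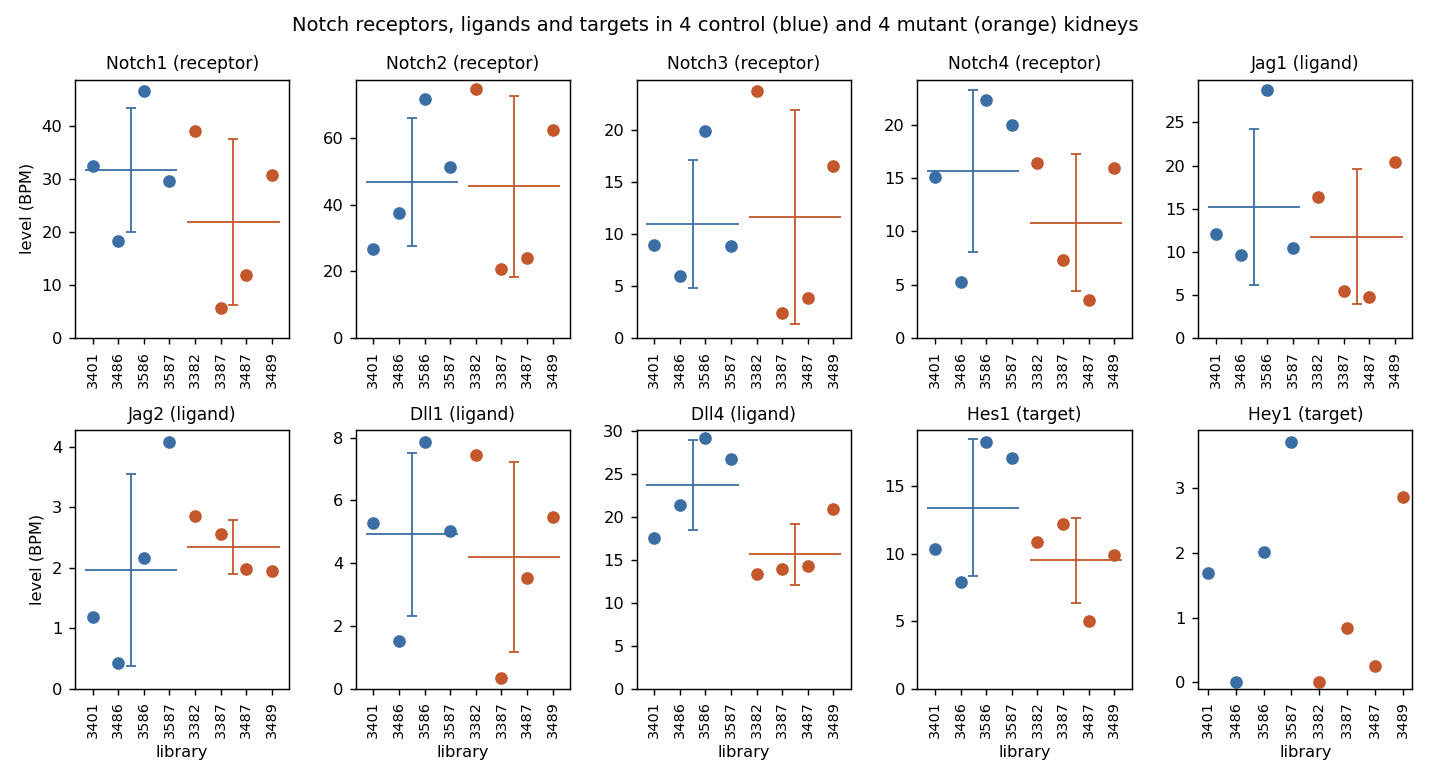
Levels in BPM (vertical axes, linear, one scale per gene) of the 10 Notch genes in each library (horizontal axes), with 4 control kidneys in blue and 4 mutant kidneys in orange; horizontal lines are group means and bars are SD, left out for Hey1, which had no bases in 2 libraries. Groups overlap for every gene, and the receptors and Jag1 are low together in mutants 3387 and 3487.

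Dll4, the Delta-like ligand of endothelium, had 3 of 4 mutants below all controls in the values as deposited, and 2 of 4 after scaling to the median gene. It was at 17.6, 21.4, 29.2 and 26.8 BPM in the controls and at 13.4, 13.99, 14.3 and 21.0 BPM in the mutants. As deposited, mutant 3489 alone lay within the control range. The means were 23.8 ± 5.26 and 15.7 ± 3.56 BPM (SD, n = 4 each), and the log2 fold change was -0.57 (SE 0.37, 95% limits -1.34 and 0.21, adjusted p = 0.857 by limma). In the authors' deposited table the ratio of means for Dll4 was 0.659 with an unadjusted p of 0.0435, the only member under 0.05 there, where 7.18% of the tested genes were under 0.05. In the values as deposited, Dll4 had the steadiest level of all members, with 2.19 times between its highest and lowest library.

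Jag1, a ligand of vessel wall and epithelium, was at 12.002, 9.61, 28.7 and 10.4 BPM in the controls and at 16.3, 5.46, 4.80 and 20.4 BPM in the mutants. Control 3586 stood far above the other controls, and mutants 3387 and 3487 stood below all of them. The log2 fold change was -0.44 (SE 0.50, 95% limits -1.49 and 0.61, adjusted p = 0.900 by limma). Dll1, a Delta-like ligand of the forming nephron, was at 5.28, 1.52, 7.85 and 5.01 BPM in the controls and at 7.43, 0.330, 3.52 and 5.46 BPM in the mutants. Its range of 23.8 times between libraries came from mutant 3387 at the low end, and the log2 fold change was -0.34 (SE 0.57, 95% limits -1.54 and 0.86, adjusted p = 0.928 by limma).

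Jag2, the second Jagged ligand, was at 1.19, 0.425, 2.16 and 4.09 BPM in the controls and at 2.86, 2.56, 1.99 and 1.96 BPM in the mutants. It was the only member with a positive estimate, a log2 fold change of 0.32 (SE 0.48, 95% limits -0.67 and 1.31, adjusted p = 0.917 by limma). All mutants lay inside the control range.

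Hes1, a basic helix-loop-helix repressor and the best known Notch target, was at 10.3, 7.91, 18.3 and 17.1 BPM in the controls and at 10.9, 12.2, 5.01 and 9.89 BPM in the mutants. In the values as deposited 1 mutant, 3487, lay below all controls and none above them, whereas after scaling to the median gene, described below, 3 mutants lay below all controls and mutant 3387 above them. The means were 13.4 ± 5.07 and 9.52 ± 3.16 BPM (SD, n = 4 each), with a log2 fold change of -0.44 (SE 0.44, 95% limits -1.35 and 0.47, adjusted p = 0.894 by limma). Hey1, a related repressor with a role in endothelium, had no bases in control 3486 and in mutant 3382. It was at 1.70, 2.01 and 3.71 BPM in controls 3401, 3586 and 3587 and at 0.842, 0.248 and 2.87 BPM in mutants 3387, 3487 and 3489. The log2 fold change of Hey1 was -0.53 (SE 0.55, 95% limits -1.67 and 0.61, adjusted p = 0.894 by limma), and at levels this low it is understated by the added 1 BPM.

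The low and high libraries were largely the same from member to member. Mutant 3387 held the lowest value of all 8 libraries for 4 members and mutant 3487 for 3, while control 3586 held the highest for 6. The same libraries had the lowest and highest median gene, at 10.6, 8.50 and 21.3 BPM. After each library was scaled to its median gene outside the small RNA classes, the range of Notch2 over the 8 libraries narrowed from 3.61 to 2.08 times, that of Notch4 from 6.32 to 2.89 times and that of Jag1 from 5.99 to 2.61 times. Notch1, Notch3 and Dll1 still ranged over 4.14, 5.26 and 13.3 times, and mutant 3387 was still the lowest library for 4 members, while mutant 3487 was lowest for 1. The range of Dll4 went from 2.19 to 2.67 times, so that Notch2 and Hes1, at 2.08 and 2.23 times, were then the steadiest members. With this median scaling the median tested gene was at -0.03 and 46.6% of tested genes were positive. Of the members, 2 of 10 were positive (Jag2 at 0.52 and Notch2 at 0.05), their median was -0.25, and 0 passed the threshold (limma, adjusted p from 0.654 for Notch1 to 0.977 for Notch2 and Notch3), against 0.451% of all tested genes. At an unadjusted p under 0.05 there were again 0 members, against 9.31% of tested genes.

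**Figure D2:**
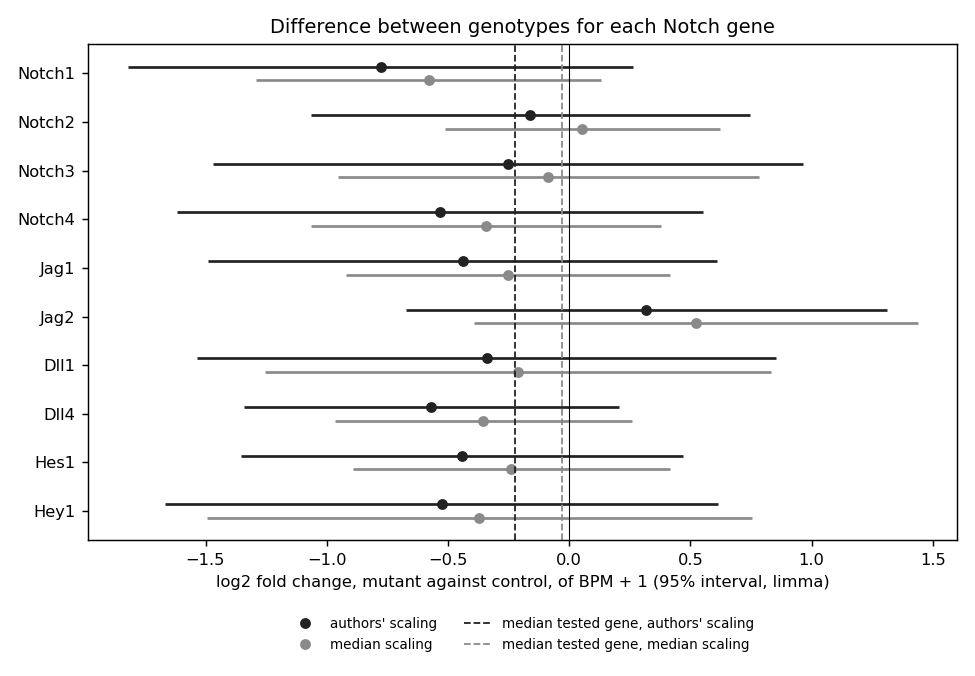
Log2 fold change of mutant against control on the log2(BPM + 1) scale (horizontal axis) for each Notch gene, with 95% intervals from limma, for the authors' scaling (black) and median scaling (grey); dashed lines mark the median tested gene at -0.23 and -0.03. Every interval crosses 0.

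Ratios between members of the same library do not depend on how libraries were scaled, and 5 were compared between genotypes by exact 2-sided permutation of the libraries, which with 4 against 4 cannot give a p below 0.0286. The log2 ratio of Notch2 to Notch1 was -0.27, 1.03, 0.62 and 0.79 among controls and 0.93, 1.88, 1.02 and 1.02 among mutants. The mutant mean was higher by 0.67 (exact p = 0.114, 0.286 after Benjamini-Hochberg adjustment over the 5 ratios), and the lowest value, control 3401, was the only library in which Notch1 had more bases than Notch2. The log2 ratio of Notch3 to Notch1 was -1.86, -1.63, -1.23 and -1.74 among controls and -0.73, -1.23, -1.64 and -0.91 among mutants. It was higher by 0.49 in the mutant mean (exact p = 0.114, adjusted 0.286), with mutants 3382 and 3489 above the controls and mutant 3387 level with the highest control.

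The other ratios differed less than their own spread. Notch4 to Notch1 averaged -1.14 ± 0.51 among controls and -0.89 ± 0.92 among mutants on the log2 scale (SD, n = 4 each; exact permutation p = 0.686, adjusted 0.857). Jag1 to Dll4 averaged -0.77 ± 0.60 and -0.67 ± 0.93 (exact permutation p = 0.857, adjusted 0.857). For Hey1 to Hes1, the libraries with no Hey1 bases set the values at -10.49 (control 3486) and -10.81 (mutant 3382), and the other libraries ran from -4.34 to -1.79 (exact permutation p = 0.657, adjusted 0.857). With 1 BPM added to both genes its mutant mean differed by -0.08 (exact permutation p = 0.857).

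**Figure D3:**
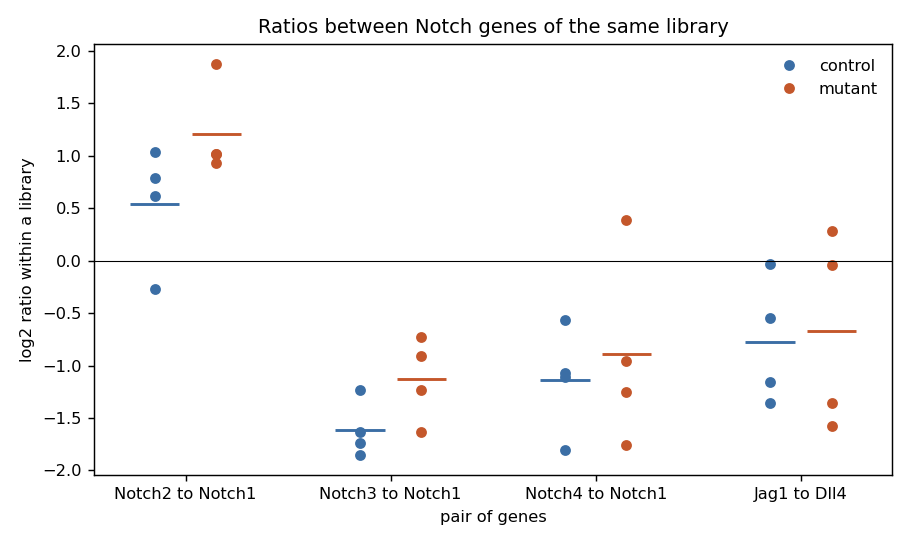
Log2 ratios within a library (vertical axis) for 4 pairs of Notch genes (horizontal axis), 1 point per library, with controls in blue, mutants in orange and lines at the group means; the Hey1 to Hes1 ratio is left out because 2 libraries had no Hey1 bases. The mutants of the Notch2 to Notch1 pair lie from 0.93 to 1.88 and the controls from -0.27 to 1.03.

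Levels of different genes were compared per kilobase of the longest protein-coding transcript, since the deposited values were not divided by length. In the controls, Hes1 had the highest level, 9.14 ± 3.46 BPM per kilobase, followed by Dll4 at 6.34 ± 1.40, Notch2 at 4.46 ± 1.84 and Notch1 at 3.35 ± 1.23 (SD, n = 4 each). Jag1 was at 2.71 ± 1.61, Notch4 at 2.38 ± 1.15, Dll1 at 1.37 ± 0.726 and Notch3 at 1.36 ± 0.767 BPM per kilobase. Hey1 ranged from no bases to 1.53 and Jag2 from 0.0832 to 0.801 BPM per kilobase. Between neighbours in this order, the mean difference within control libraries exceeded its SD for Hes1 over Dll4 (2.80 ± 2.33), Dll4 over Notch2 (1.88 ± 0.604), Notch4 over Dll1 (1.00 ± 0.541) and Hey1 over Jag2 (0.380 ± 0.338). It did not for the run from Notch2 through Notch1 and Jag1 to Notch4, nor for Dll1, Notch3 and Hey1.

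In the mutants Hes1 again had the highest mean, 6.48 ± 2.15 BPM per kilobase, with Notch2 at 4.34 ± 2.59 and Dll4 at 4.18 ± 0.949 (SD, n = 4 each). Dll4 exceeded Notch2 in 4 of 4 controls and in 2 of 4 mutants. Of the summed receptor level per kilobase, Notch2 made up 27.3% to 50.8% in the controls and 42.6% to 50.3% in the mutants. Notch1 made up 25.7% to 36.4% in the controls and 14.9% to 27.5% in the mutants, with 3 of 4 mutants below all controls. Of the summed ligand level per kilobase, Dll4 made up 50.2% to 72.0% in the controls and 39.2% to 70.4% in the mutants. These shares are descriptions and were not tested.

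**Figure D4:**
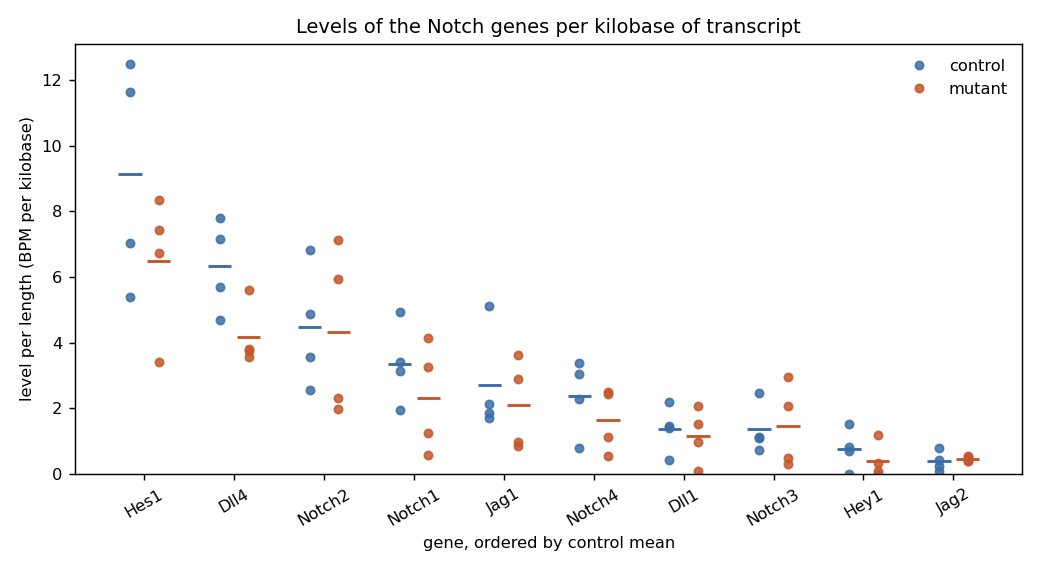
Levels in BPM per kilobase of transcript (vertical axis, from 0) for the 10 Notch genes ordered by control mean (horizontal axis); points are libraries, controls in blue and mutants in orange, and short lines are group means. Hes1 and Dll4 lead in the controls, and Hey1 and Jag2 are lowest.

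Markers of the cells that use these genes were read beside them. Of 8 endothelial markers (Pecam1, Cdh5, Kdr, Flt1, Emcn, Egfl7, Tek and Ehd3), 8 were tested. By limma 0 passed the threshold, against 0.107% of all tested genes, and 0 had a positive log2 fold change, against 28.4%. Their median was -0.60, beside -0.57 for Dll4 and -0.23 for the median tested gene. Medians were also negative for other lists, among them proximal tubule (-0.49), podocytes (-0.47) and distal tubule (-1.20). They were positive for principal cells (0.07), parietal epithelium (0.32), smooth muscle and pericytes (0.59) and macrophages (1.27). The summed level of the endothelial markers was 293 to 555 BPM in the controls and 181 to 346 BPM in the mutants. Each of the 8 had bases in every library. As a percentage of that sum, Dll4 was 4.66, 7.29, 5.27 and 5.92 among controls and 3.86, 6.62, 7.91 and 6.34 among mutants, with means of 5.78 ± 1.13 and 6.18 ± 1.69 (SD, n = 4 each). Notch4 made up 3.56 ± 1.20% of the same sum among controls and 3.76 ± 1.35% among mutants (SD, n = 4 each).

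Of 7 smooth muscle and pericyte markers (Acta2, Myh11, Tagln, Pdgfrb, Rgs5, Cnn1 and Des), 0 passed the threshold and 5 were positive. Of all tested genes, 0.107% passed it and 28.4% were positive. Each of the 7 markers had bases in every library. Their summed level was 183 to 217 BPM in the controls and 490, 291, 146 and 255 BPM in mutants 3382, 3387, 3487 and 3489. Notch3 was 3.03% to 9.18% of this sum among controls and 4.84%, 0.820%, 2.63% and 6.46% among mutants. Mutant 3387 had mural markers above all controls and the lowest Notch3 of all libraries, whereas mutant 3382 was highest in both. The 6 podocyte markers summed to 120 to 350 BPM in the controls and 74.2 to 196 BPM in the mutants. Of them 0 passed the threshold and 0 were positive, beside the same shares of all tested genes. Of 6 macrophage markers, 5 were tested, 0 passed the threshold and 5 were positive, against the same 0.107% and 28.4% of all tested genes. The 6 summed to 99.1 to 185 BPM in the controls and 180 to 1416 BPM in the mutants. The part of cell numbers in the Notch values was not tested.

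The wider pathway was read from a list of 58 genes, the members among them. Of these, 50 were tested and 0 passed the threshold in either direction by limma, against 0.107% of all tested genes, with 1 at an unadjusted p under 0.05, against 6.33%. The list had 13 positive and 37 negative log2 fold changes, where 28.4% of all tested genes were positive, and a median of -0.19, where the median tested gene was at -0.23. After median scaling 27 of 50 were positive, against 46.6% of all tested genes, and the list median was 0.02. With the small RNA share as covariate 40 of 50 were positive, against 68.4%. At an unadjusted limma p under 0.05 there were then 14 higher and 1 lower. Of all 13060 tested genes 2373 were higher and 509 lower at that p, 22.1% in either direction. Without mutants 3387 and 3487, 39 of 49 were positive, against 68.5%. The ligands Dll3 and Dlk1, the attenuator Dtx1 and the target genes Hes5 and Hes7 had no bases in any library.

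The gene of smallest unadjusted p was Psenen, which encodes a subunit of gamma-secretase, the protease that frees the Notch intracellular part. It was at 22.0, 21.3, 25.2 and 18.9 BPM in the controls and at 12.5, 8.89, 14.4 and 8.05 BPM in the mutants. In the values as deposited the groups did not overlap, the only such case among the 50 tested pathway genes (against 4.29% of all tested genes). Yet the log2 fold change of -0.96 (SE 0.38, unadjusted p = 0.0202) had a limma adjusted p of 0.651. After scaling to the median gene, mutant 3487 lay within the control range of Psenen, and the log2 fold change was -0.75. Another gamma-secretase subunit gene, Aph1c, was at 37.8 ± 7.03 and 24.99 ± 12.2 BPM (SD, n = 4 each; log2 fold change -0.66, limma adjusted p = 0.832). Aph1b and Aph1c are near copies of each other, which makes the division of coverage between them uncertain. Ncstn, of the subunit that receives the substrate, had a log2 fold change of -0.15.

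On the positive side the smallest unadjusted p belonged to Aph1a, with a log2 fold change of 0.71 at 1.24 ± 0.877 and 2.46 ± 0.809 BPM, and Heyl, a target gene of vessel walls, with 0.67 at 1.96 ± 1.42 and 3.89 ± 2.10 BPM (SD, n = 4 each; limma adjusted p = 0.857 for both). Aph1a had no bases in control 3486 and was at 1.88, 1.22 and 1.86 BPM in controls 3401, 3586 and 3587. In the values as deposited, Heyl was above all controls in 3 of 4 mutants and below them in mutant 3487. After scaling to the median gene, mutant 3487 lay within the control range of Heyl. Of the 7 genes of the nuclear complex, 5 were positive, among them Rbpj at 0.13 and Maml3, a coactivator, at 0.35. The 2 negative ones were Snw1 at -0.59 and Kat2b at -0.35, and the median of the 7 was 0.11. The 5 corepressor genes were all negative, with a median of -0.34, and the 5 genes of Notch glycosylation were all negative, with a median of -0.19. Over all tested genes 28.4% were positive, and the median gene was at -0.23. After median scaling the medians of the nuclear complex, corepressor and glycosylation classes were 0.31, -0.12 and 0.02, where the median tested gene was at -0.03. Adam10 and Adam17, of the ADAM protease family, were at -0.06 and -0.38, and Furin, which processes the receptor precursor, at -0.19.

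**Figure D5:**
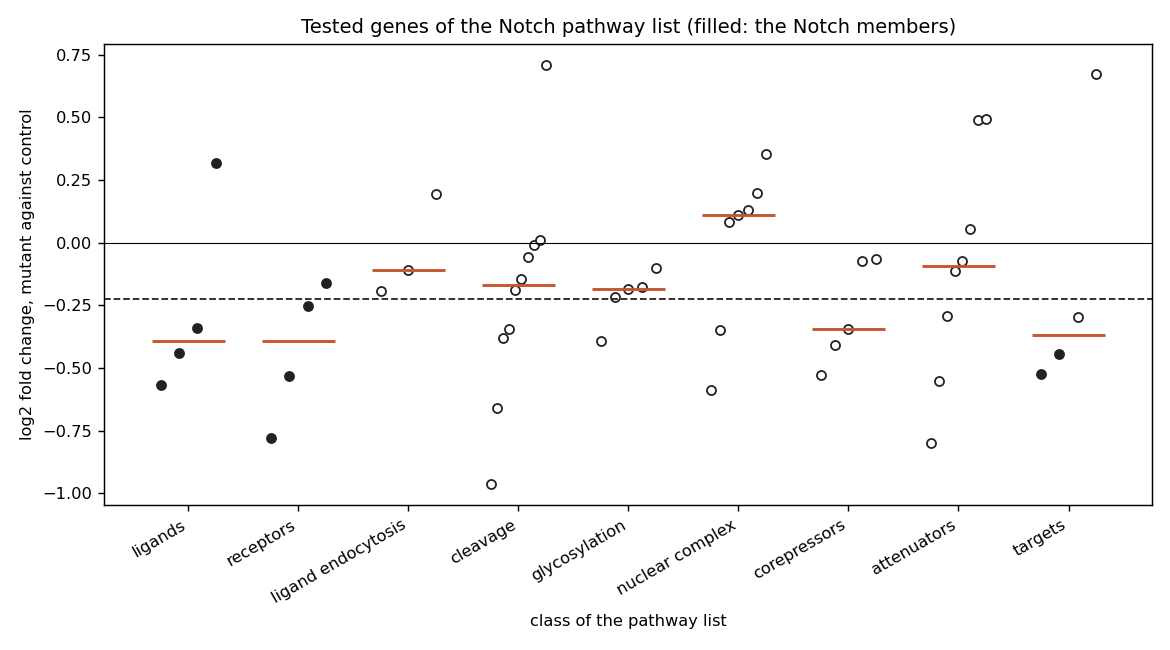
Log2 fold change of mutant against control (vertical axis) for the 50 tested genes of the Notch pathway list, by class (horizontal axis); filled points are the 10 Notch members, open points other genes, orange lines class medians, and the dashed line the median tested gene at -0.23. Psenen is the lowest point at -0.96 and Aph1a the highest at 0.71, and no gene passed the threshold.

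Likeness of profile was measured as the mean absolute difference of centred log2 levels over the 8 median-scaled libraries, against 9699 or 9700 other genes. The nearest of so many genes will lie close for any member, and closer for a member of small spread. On this scale the spread of a member itself was 0.29 for Notch2, 0.31 for Dll4, 0.32 for Jag1 and 0.64 for Hey1. Shared regulation was not tested. The closest partner of any member was Synrg for Jag1, at 0.03 log2 units, followed by Abcc9 and Hsph1 for Dll4, at 0.07 and 0.09. Notch2 was nearest to Abcc5 and Fryl (0.10 and 0.12), Notch4 to Ezr and Eif2c2 (0.10 and 0.10), and Hes1 to Ubac1 and Frs3 (0.11 and 0.13). Notch1 and Dll1 shared their nearest gene, Rnf20, at 0.16 and 0.17, followed by Gcc1 and Adarb1 at 0.16 and 0.22. Notch3 was nearest to Kirrel and Fancm (0.15 and 0.16), Jag1 had Adcy9 second (0.11), Jag2 had Styx and Gba2 (0.15 and 0.20), and Hey1 had Mtm1 and Npr2 (0.23 and 0.25).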

How the data were processed

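RNA of 8 kidneys was compared by genotype. Per the labels' protocols, total RNA was depleted of ribosomal RNA and made into Ion Total RNA-seq libraries. The authors deposited 1 table of 23219 genes with a value per library, group means, a ratio of means and an unadjusted p-value, and no header gives the unit. What the authors deposited was taken to be a signal of base coverage: within a tolerance of 1e-06 each is a whole multiple of the lowest value of its library, each library has the same total, and of the positive values only 0.0435% lie from 1 to 19 steps. Each value is then the bases of a gene with 1 added, brought to one total, and division by 280 gives BPM. The number of reads is unknown, so no counting interval is given, and the libraries of 164 to 468 megabases differ in precision. The submitters' processing notes name bedtools and mm10; the sources used here name no aligner, annotation or strand setting.

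The filter kept genes that reached 1 BPM in 4 libraries. limma 3.58.1 under R 4.3.3 then fitted log2(BPM + 1), its variance prior following the mean, and 2-sided p-values were adjusted over all genes kept. Fold changes of low genes are understated on this scale. Since the unit is not a count, the branch of the design for normalized values was used. Transcript lengths, coordinates and gene classes came from GENCODE vM21 (22873 symbols matched, 694 of small RNA classes). Ratios used exact permutation tests (scipy 1.17.1). The members, the pathway and marker lists, and the tests were chosen with earlier results of these data known. Named pathway genes were those called and the 2 of smallest p in each direction; profile partners were the 2 nearest genes of at least 5 BPM on average, without small RNA and predicted genes; the remaining pathway genes in the text were picked with their values known. The fit was checked on simulated data. Alternatives covered scaling, filter, pseudocount, weights, a covariate and libraries left out.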

Additional observations from a re-analysis of the deposited data

Results flagged for a closer look

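Values were checked for a library far from the others of its group, in 30 groups of 4, where chance gives about 1 in 20, and 4 stood out. Jag1 was at 28.7 BPM in control 3586, with the other controls from 9.61 to 12.002. Dll4 was at 21.0 BPM in mutant 3489, with the other mutants from 13.4 to 14.3. The log2 ratio of Notch2 to Notch1 was 1.88 in mutant 3387, with the other mutants from 0.93 to 1.02. The log2 ratio of Hey1 to Hes1 was -10.49 in control 3486, which had no Hey1 bases.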

How the results depend on the processing

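No paired analysis was possible because the labels name no pairs of libraries. In all 16 alternatives, 0 Notch members and 0 genes of the pathway list passed the threshold by limma, and the smallest adjusted p of any member was 0.168, for Notch3 with the small RNA share as covariate. Dll4, Hes1, Hey1 and Jag2 kept their direction wherever they were tested. The others turned with the covariate and without both mutants of high small RNA share (3387 and 3487), respectively: Notch1 to 0.11 and 0.20, Notch2 to 0.61 and 0.63, Notch3 to 0.86 and 0.93, Notch4 to 0.34 and 0.21, Jag1 to 0.42 and 0.39, and Dll1 to 0.45 and 0.45. Notch2 was also positive with median scaling (0.055), small RNA genes left out of totals (0.12) and array weights (0.12). The cause was not tested.

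With single libraries left out, log2 fold changes ran from -1.16 to -0.29 for Notch1, -0.46 to 0.14 for Notch2, -0.73 to 0.23 for Notch3, -0.95 to -0.14 for Notch4, -0.77 to -0.10 for Jag1, 0.02 to 0.63 for Jag2, -0.71 to 0.22 for Dll1, -0.71 to -0.46 for Dll4 and -0.65 to -0.19 for Hes1. Hey1 ran from -0.96 to -0.27 in the 4 such fits where it still passed the filter. Notch2 and Notch3 turned positive without control 3586 (0.07 and 0.06), mutant 3387 (0.14 and 0.23) or mutant 3487 (0.07 and 0.06), and Dll1 without mutant 3387 (0.22). Differences in log2 ratio ran from 0.40 to 0.83 for Notch2 to Notch1, 0.36 to 0.66 for Notch3 to Notch1, -0.18 to 0.53 for Notch4 to Notch1, -0.22 to 0.40 for Jag1 to Dll4 and -2.53 to 1.29 for Hey1 to Hes1. The Notch4 to Notch1 difference was -0.18 without mutant 3387. That of Jag1 to Dll4 was -0.03, -0.09, -0.22 and -0.11 without control 3486, control 3587, mutant 3382 and mutant 3489. Without both mutants of high small RNA share the differences were 0.43, 0.80, 0.03, 0.90 and -1.68 in the same order of ratios, with exact permutation p from 0.133 to 1. With so few mutants left, the permutation cannot give a p below 0.133, the value found for Notch3 to Notch1. It therefore could not pass the threshold for any ratio, and these p-values decide nothing. With single libraries left out, the difference for Hey1 to Hes1 was 0.09, 0.23 and 1.29 without control 3401, control 3587 and mutant 3382.

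The count of 14 genes past the threshold over all tested genes became 59 with median scaling, 54 with small RNA genes left out of totals, 9 with the filter of 5 BPM, 9 with a pseudocount of 0.1, 73 with array weights, 490 with the covariate and 51 without both mutants of high small RNA share. With no filter limma called 0, with 1274 genes at an unadjusted p under 0.05. With single libraries left out it ran from 5 to 40. Depth limits the low genes, such as Hey1, Jag2 and Dll1, which were under 1 BPM in at least 1 library each.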
